A study of Mus musculus with 18 samples.

Results

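The subject is a set of 9 genes of fatty acid oxidation and its control in mouse colon, namely Cpt1a, Acadm, Hadha, Pdk4, Angptl4, Lpin1, Ppara, Ppargc1a and Fabp2. They were picked by symbol from a table of 35405 genes, and all 9 passed the filter on low counts that left 20855 genes for testing. Lpin1 was picked because it was higher in IBC than in TNBS libraries, so its values in that comparison are a description without a test. RNA sequencing of polyadenylated RNA was done on 18 libraries of colon tissue in 3 groups of 6, named IBC (isobavachalcone, a plant chalcone), TNBS (trinitrobenzene sulfonic acid, a hapten that provokes colitis in rodents) and vector (the controls, called control in the library names). The labels give no strain, age, dose or time, do not say whether IBC animals also received TNBS, and do not say whether libraries come from separate animals. The p-values therefore measure the spread between libraries, which may be technical. None of the 9 genes encodes an enzyme of ketone body synthesis, and ketone body genes are described further on as a separate list.

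Fatty acid oxidation breaks fatty acids down in mitochondria to acetyl-CoA. Long-chain fatty acids enter on carnitine, are shortened in repeated rounds of dehydrogenation, hydration, oxidation and thiolysis, and the product feeds respiration or ketone bodies. In the colon, epithelial cells burn fatty acids, above all butyrate made by gut bacteria, as a main fuel. The nuclear receptor PPAR-alpha, encoded by Ppara, binds fatty acids and switches on many genes of the pathway together with the coactivator PGC-1-alpha, encoded by Ppargc1a.

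Levels are the deposited FPKM values (fragments scaled to transcript length and to library size), which allow genes to be compared with each other. Fold changes are log2 values with their standard error from edgeR's quasi-likelihood test on the counts, adjusted by Benjamini-Hochberg over all 20855 genes at a threshold of 0.05. They also use a scaling between libraries (TMM) that the FPKM values lack. On log2(FPKM + 0.1) the median over all genes was 0.114 in IBC against TNBS, against 0.00226 with TMM. Counts of libraries above or below a median, and statements on overlap, are taken on FPKM and carry this shift. On TMM-scaled counts some of them differ, also in TNBS against vector. The TMM factors ran from 0.813 (TNBS 5) to 1.152 (IBC 6). The libraries held between 55669263 and 78874868 counts. Mitochondrially encoded genes took 17.98% of the counts in vector 3 and 4.48% to 9.20% in the other 17 libraries. The libraries fall into a set of 6 low in Hoxb13, a Hox gene active toward the tail end (0 to 1.44 CPM, counts scaled to library size), and a set of 12 high in it (123 to 598 CPM). Each group has 2 libraries in the low set and 4 in the high set. Markers of colon epithelium summed to between 2884 and 13541 FPKM over the libraries. In that sum the marker Car1 had the widest range (207 to 9570 FPKM in IBC libraries). Markers of small intestinal enterocytes summed to between 0.970 and 28.7 FPKM. That sum was mostly Alpi, with means of 13.4 FPKM in IBC, 8.32 in TNBS and 6.01 in vector libraries. The next highest group mean was 0.578 FPKM (Apob in IBC), and Apoa1, Apoa4, Lct and Fabp1 had too few counts to test.

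**Figure D1:**
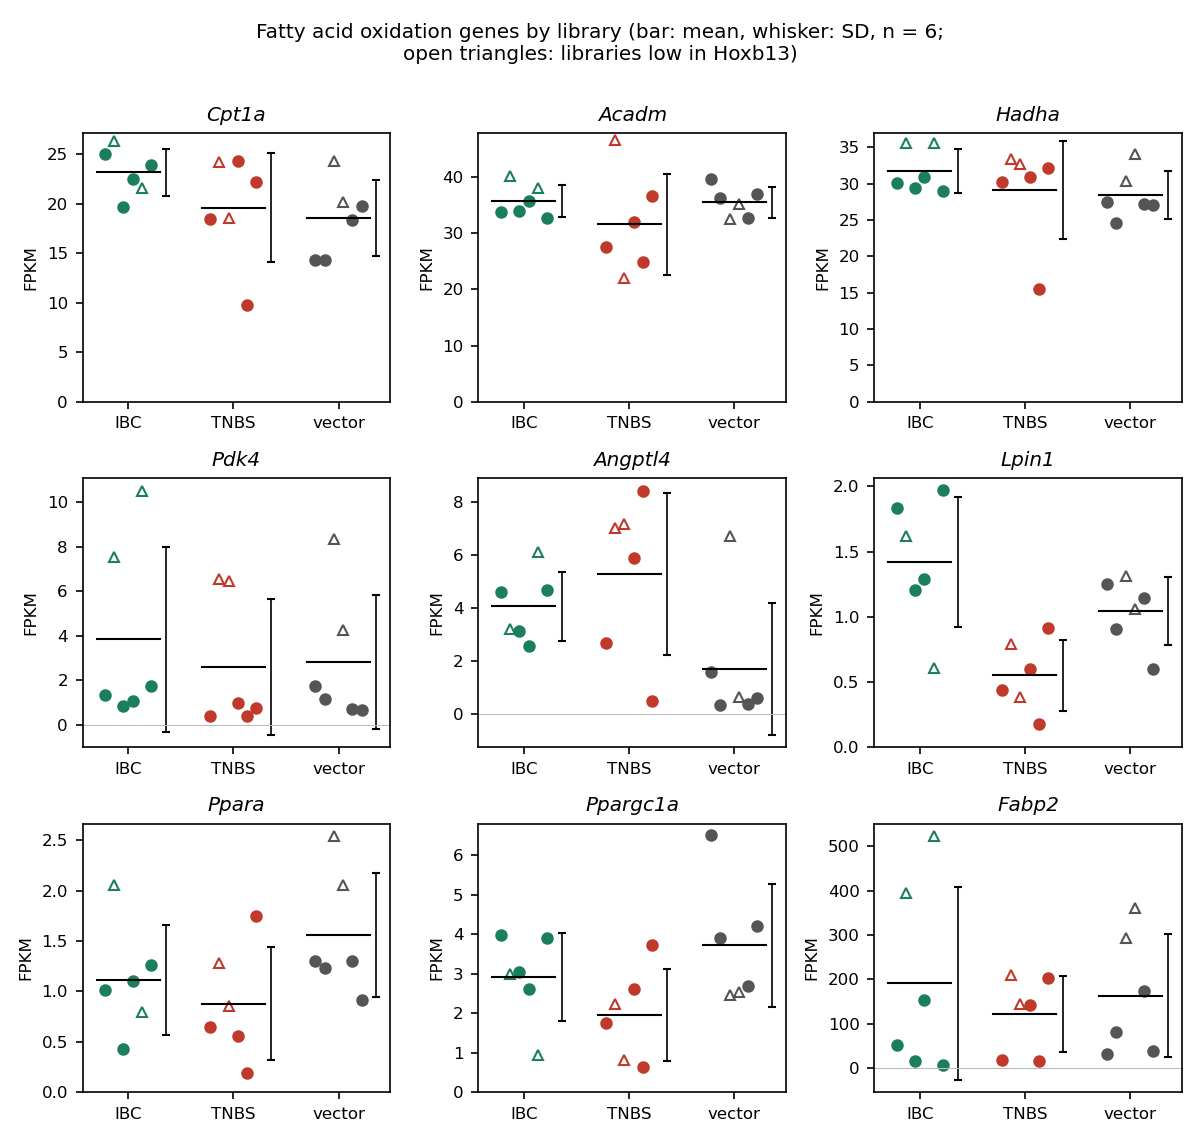
FPKM of each gene (vertical axes, linear) in the IBC, TNBS and vector libraries. Each point is a library, open triangles are libraries low in Hoxb13, bars are group means and whiskers SD (n = 6). In the top row the highest library is at most 2.68 times the lowest, and the 6 triangles of Pdk4 lie at 4.26 FPKM or more with all circles at 1.75 FPKM or less.

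None of the 9 genes passed the test between TNBS and vector, where 4 of all genes tested did (0.0192%). None of the 8 genes with a test passed between IBC and TNBS, where 0 of all genes did (0%). Of the 9 genes 0 passed in the comparison of IBC with vector, where again 0 of all genes did (0%). At an unadjusted p under 0.05 there were 3 of 9 in TNBS against vector (17.8% of all genes), 0 of 8 in IBC against TNBS (3.93%) and 0 of 9 in IBC against vector (8.53%). Lpin1 was 1 of the 3, and its choice drew on its TNBS values. DESeq2 called 0 of 9 in TNBS against vector (2.89% of all genes), 0 of 8 in IBC against TNBS (0.00961%) and 0 of 9 in IBC against vector (0.93%). The groups overlapped in FPKM for all 9 genes in all 3 comparisons, while 0.969% of all genes did not overlap in TNBS against vector (0.403% higher, 0.566% lower). That share was 0.0815% in IBC against TNBS (0.0719% higher, 0.00959% lower) and 1.3% in IBC against vector (1.12% higher, 0.182% lower). By sign alone 3 genes were higher and 6 lower in TNBS than in vector (48.9% and 51.1% of all genes), with a median log2 fold change of -0.18, against -0.0125 over all genes. Without Lpin1, 3 were higher and 5 lower, with a median of -0.16. In IBC against TNBS 8 were higher and 1 lower (50.3% and 49.7% of all genes), with a median of 0.28, against 0.00226 over all genes. Lpin1 is 1 of these 8 by the way it was picked, and without it 7 were higher and 1 lower, with a median of 0.22. In IBC against vector 6 were higher and 3 lower (49.1% and 50.9% of all genes), with a median of 0.23, against -0.00597 over all genes. Without Lpin1, 5 were higher and 3 lower there, with a median of 0.16. The comparisons share libraries, and a gene that is low in TNBS enters both TNBS comparisons with opposite sign.

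**Figure D2:**
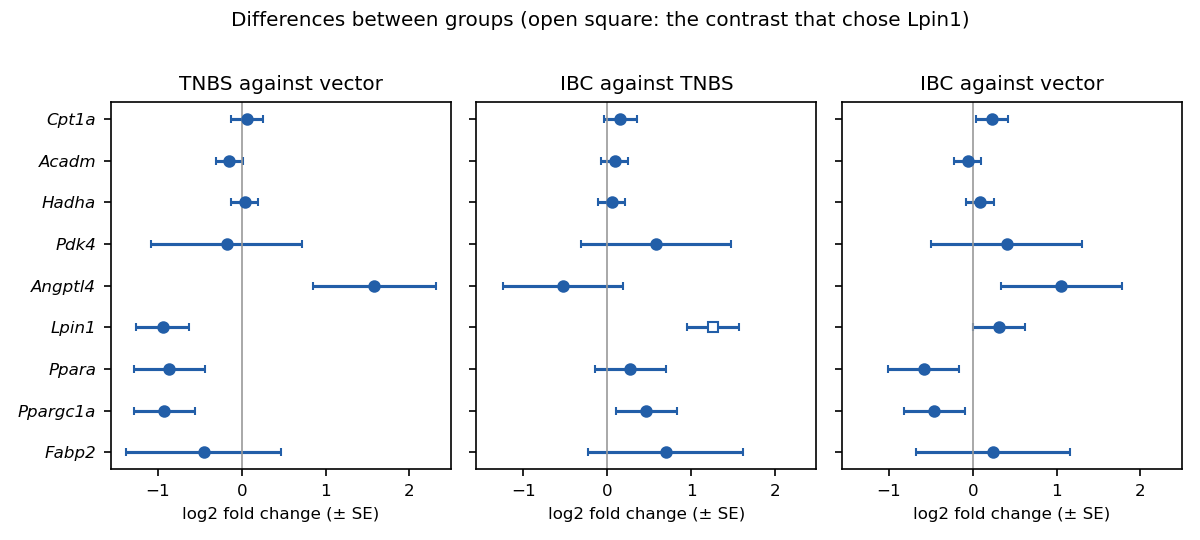
Log2 fold changes (horizontal axes, ± SE) of the 9 genes in the 3 comparisons. The open square is Lpin1 between IBC and TNBS, the comparison that chose it. Cpt1a, Acadm and Hadha lie within 0.23 of 0, and Lpin1, Ppara and Ppargc1a lie between -0.94 and -0.86 for TNBS against vector.

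Cpt1a, Acadm and Hadha, the 3 enzymes of the oxidation route itself, varied least of the 9 genes. Their highest library was 2.68 times (Cpt1a), 2.12 times (Acadm) and 2.30 times (Hadha) the lowest. Cpt1a (ENSMUSG00000024900, chromosome 19, 3372334 to 3435733, plus strand, in the coordinates of the deposited table, whose genome build is not given in the sources used here) encodes carnitine palmitoyltransferase 1A, which couples long-chain fatty acids to carnitine for entry into mitochondria. Its FPKM had a lowest, median and highest value of 19.7, 23.2 and 26.3 in IBC, 9.83, 20.4 and 24.4 in TNBS and 14.3, 19.1 and 24.3 in vector libraries. On FPKM all 6 IBC libraries lay above the vector median and 5 of 6 above the TNBS median, but the ranges overlapped. On TMM-scaled counts IBC 3 lay below the vector median. For Cpt1a the log2 fold change of TNBS over vector was 0.07 ± 0.19 (edgeR adjusted p = 0.865). It was 0.16 ± 0.19 for IBC over TNBS (adjusted p = 0.940) and 0.23 ± 0.19 for IBC over vector (adjusted p = 0.820).

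Acadm (ENSMUSG00000062908, chromosome 3, 153627994 to 153650269, minus strand) encodes the medium-chain acyl-CoA dehydrogenase, the first step of a round of oxidation. It averaged 35.7 ± 2.90 FPKM in IBC, 31.6 ± 8.99 in TNBS and 35.5 ± 2.72 in vector libraries (SD, n = 6 each). The TNBS libraries spread widest, with the highest value of all 18 libraries in TNBS 2 (46.6 FPKM) and the lowest in TNBS 3 (22.01 FPKM), both low in Hoxb13. Its log2 fold change was -0.15 ± 0.16 for TNBS against vector (edgeR adjusted p = 0.621), with 4 of 6 TNBS libraries below the vector median. For IBC against TNBS it was 0.09 ± 0.16 (edgeR adjusted p = 0.966). On FPKM 6 of 6 IBC libraries lay above the TNBS median, but on TMM-scaled counts IBC 1 and IBC 6 lay below it.

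Hadha (ENSMUSG00000025745, chromosome 5, 30323302 to 30360160, minus strand) encodes the alpha subunit of the trifunctional protein, which carries out later steps of the round for long chains. It averaged 31.8 ± 3.05 FPKM in IBC, 29.1 ± 6.78 in TNBS and 28.4 ± 3.32 in vector libraries (SD, n = 6 each). TNBS 5 had 15.5 FPKM of Hadha and the other 5 TNBS libraries 30.3 to 33.4. For Hadha the log2 fold change of TNBS over vector was 0.03 ± 0.16 (edgeR adjusted p = 0.928). It was 0.05 ± 0.16 for IBC over TNBS (adjusted p = 0.981) and 0.09 ± 0.16 for IBC over vector (adjusted p = 0.936). Its sign was not stable to single libraries, and without TNBS 5 the IBC against TNBS value was -0.04.

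The 3 genes of transcriptional control, Lpin1, Ppara and Ppargc1a, each had a lower mean in TNBS than in vector libraries, with the TNBS mean between 0.527 and 0.565 of the vector mean on the FPKM scale and no call. Lpin1 encodes lipin 1, a phosphatidate phosphatase that in mouse liver also acts as a coactivator with PPAR-alpha and PGC-1-alpha. The promoter windows of these genes, 250 bases before to 50 after a start site from RefSeq on GRCm38.p6, are shown because these are the members that control transcription of the pathway. Their lower TNBS means did not pass the test, and the choice of Lpin1 drew on its TNBS values. Capitals mark AGGTCA or its reverse complement TGACCT, the half-site of nuclear receptors such as PPAR-alpha.
Lpin1, chr12:16610917-16611216, minus strand: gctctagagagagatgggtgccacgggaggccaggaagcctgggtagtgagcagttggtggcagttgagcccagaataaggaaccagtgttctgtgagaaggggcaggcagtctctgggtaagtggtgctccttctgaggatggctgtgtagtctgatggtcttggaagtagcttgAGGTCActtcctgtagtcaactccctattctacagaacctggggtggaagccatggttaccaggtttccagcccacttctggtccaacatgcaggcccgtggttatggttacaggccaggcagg
Ppara, chr15:85735526-85735825, plus strand: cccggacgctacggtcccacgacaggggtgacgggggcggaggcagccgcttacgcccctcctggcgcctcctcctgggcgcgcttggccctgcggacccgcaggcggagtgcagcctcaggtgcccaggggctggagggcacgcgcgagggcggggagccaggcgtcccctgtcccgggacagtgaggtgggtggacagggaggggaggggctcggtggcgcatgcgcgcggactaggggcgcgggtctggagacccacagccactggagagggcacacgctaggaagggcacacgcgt
Ppargc1a, chr5:51567676-51567975, minus strand: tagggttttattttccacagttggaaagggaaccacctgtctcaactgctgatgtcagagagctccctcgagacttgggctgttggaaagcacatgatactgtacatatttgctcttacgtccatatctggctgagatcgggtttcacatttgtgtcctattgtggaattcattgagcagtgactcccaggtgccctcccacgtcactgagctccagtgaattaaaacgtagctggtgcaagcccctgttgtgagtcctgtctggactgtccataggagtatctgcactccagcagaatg
The Lpin1 window holds 1 match, at position -74 from the start site, and the Ppara and Ppargc1a windows hold 0. Of the 8 members with a window in the table, 3 hold a match (Lpin1, Cpt1a and Acadm), and 16.2% of 32544 windows of the same length do. A direct repeat of AGGTCA with 1 base between the copies, searched on both strands, is in 13 of them and in none of the 8. A match describes the letters only, and no match in a window does not speak to binding.

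Lpin1 (ENSMUSG00000020593, chromosome 12, 16585670 to 16660967, minus strand) had a lowest, median and highest value of 0.605, 1.45 and 1.97 FPKM in IBC, 0.177, 0.519 and 0.911 FPKM in TNBS and 0.602, 1.10 and 1.31 FPKM in vector libraries. On FPKM all 6 TNBS libraries lay below the vector median and 4 of them below every vector library. For TNBS 4 this was a near tie (0.599 FPKM, against 0.602 in vector 6), and on TMM-scaled counts it lay above vector 6. Lpin1 differed by -0.94 ± 0.31 (log2, SE) between TNBS and vector (edgeR adjusted p = 0.182, unadjusted p = 0.00724). Over the alternatives this value ran from -1.13 to -0.41 with adjusted p between 0.0705 and 0.395. Between IBC and TNBS, the comparison that chose Lpin1, 5 of 6 IBC libraries were above every TNBS library, and IBC 5 (0.605 FPKM) was not. The log2 fold change there was 1.26 ± 0.31, which describes the choice. The other comparisons of Lpin1 share libraries with that one. In IBC against vector its value was 0.32 ± 0.31 (edgeR adjusted p = 0.852), with 5 of 6 IBC libraries above the vector median.

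Ppara (ENSMUSG00000022383, chromosome 15, 85619184 to 85687020, plus strand) had 0.428, 1.06 and 2.05 FPKM as the lowest, median and highest value in IBC, 0.195, 0.752 and 1.75 FPKM in TNBS and 0.918, 1.30 and 2.54 FPKM in vector libraries. On FPKM TNBS 6 alone of the TNBS libraries exceeded the vector median, and 4 of 6 lay below every vector library. On TMM-scaled counts TNBS 2 also exceeded that median and TNBS 3 lay above vector 6, both narrowly. The difference between TNBS and vector was -0.86 ± 0.43 (log2, SE, edgeR adjusted p = 0.296). The vector value of 2.54 FPKM is vector 3, and without that library the difference was -0.59. Between IBC and TNBS Ppara differed by 0.28 ± 0.43 (edgeR adjusted p = 0.953), with a value of -0.04 without IBC 2. Between IBC and vector it differed by -0.59 ± 0.43 (edgeR adjusted p = 0.773), with 5 of 6 IBC libraries below the vector median.

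Ppargc1a (ENSMUSG00000029167, chromosome 5, 51611592 to 51725046, minus strand) had 0.956, 3.02 and 3.98 FPKM as the lowest, median and highest value in IBC, 0.637, 2.00 and 3.73 FPKM in TNBS and 2.47, 3.30 and 6.51 FPKM in vector libraries. Again TNBS 6 was the 1 TNBS library above the vector median, and 4 of 6 were below every vector library. The difference between TNBS and vector was -0.92 ± 0.36 (log2, SE, edgeR adjusted p = 0.220, unadjusted p = 0.0205), and over the alternatives it ran from -1.19 to -0.71. Ppargc1a differed by 0.47 ± 0.36 between IBC and TNBS (edgeR adjusted p = 0.925, 5 of 6 IBC libraries above the TNBS median) and by -0.46 ± 0.36 in IBC over vector (0.803, 4 of 6 below the vector median).

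Markers of other cell types also differed by sign between TNBS and vector libraries. Neutrophil markers (5 of 5 higher in TNBS than vector) summed to 2.86 to 257 FPKM in TNBS and 0.726 to 2.70 FPKM in vector libraries. Macrophage markers (4 of 5 higher) summed to 65.6 to 246 FPKM in TNBS and 36.9 to 109 FPKM in vector libraries. Smooth muscle markers (7 of 7 lower, 1 called) summed to 689 to 1682 FPKM in TNBS and 1097 to 2400 FPKM in vector libraries. Colon epithelium markers (4 of 8 higher) summed to 2984 to 8239 FPKM in TNBS and 3952 to 8837 FPKM in vector libraries. No marker of these lists was at 0 in all libraries of a group, and their part in the values of Lpin1, Ppara and Ppargc1a was not tested. Adipocyte markers were higher in IBC than in TNBS for 6 of 7 genes (median log2 fold change 0.40, 0 called), and their part in the Lpin1 values was not tested either. In bulk tissue, fewer cells of a type and less RNA per cell cannot be told apart.

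The TNBS libraries differed among themselves. TNBS 5 had the lowest FPKM of all 18 libraries for 6 of the 9 genes (Cpt1a, Hadha, Pdk4, Lpin1, Ppara and Ppargc1a) and the highest for Angptl4. Its TMM factor was also the lowest of the 18 (0.813), and FPKM lacks this scaling, so ranks on scaled counts can differ. For Pdk4 they did: TNBS 1 had 95 counts at a TMM factor of 1.08 and TNBS 5 had 102 counts. On scaled counts TNBS 1 was therefore below TNBS 5 for Pdk4. TNBS 5 also had the highest sums of neutrophil (257 FPKM) and macrophage (246 FPKM) markers. TNBS 6 had the lowest neutrophil sum of the TNBS libraries (2.86 FPKM), the lowest Angptl4 of the TNBS libraries (0.520 FPKM) and the highest Lpin1, Ppara and Ppargc1a among them. Its smooth muscle sum (689 FPKM) was the lowest of all 18 libraries. Without TNBS 5 the differences between TNBS and vector were -0.77 for Lpin1, -0.65 for Ppara and -0.74 for Ppargc1a. Without TNBS 6 they were -1.13, -1.16 and -1.19 (edgeR adjusted p = 0.0705, 0.117 and 0.0774).

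**Figure D3:**
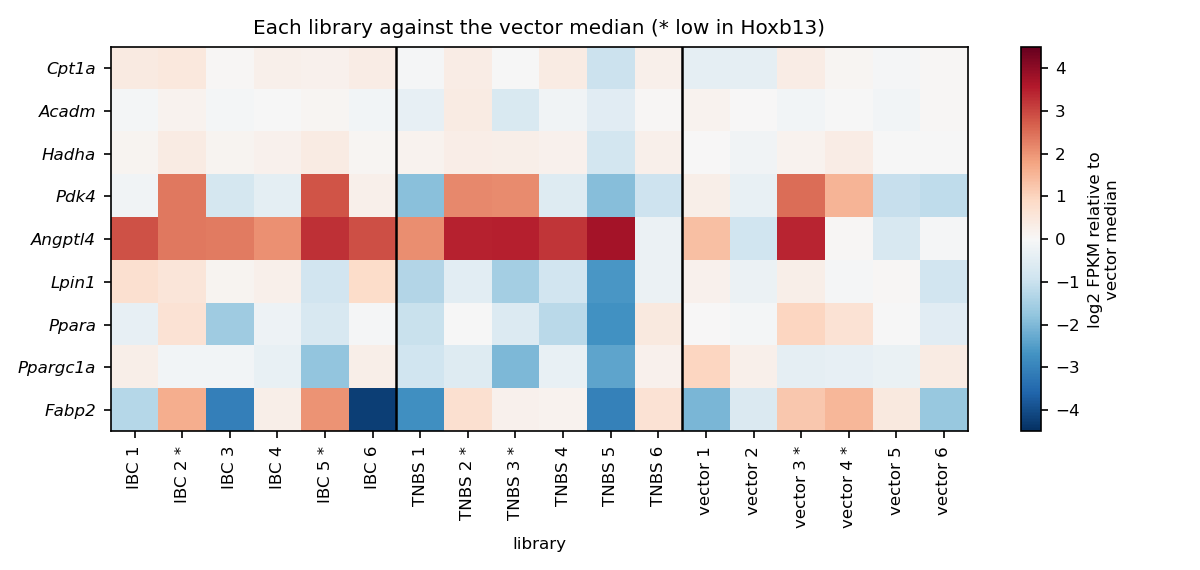
Log2 FPKM of each gene (rows) in each library (columns) relative to the vector median, with blue for lower and red for higher. Asterisks mark libraries low in Hoxb13. TNBS 5 is below the vector median in 8 of 9 genes, and Angptl4 is above the vector median in 6 of 6 IBC and 5 of 6 TNBS libraries.

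Angptl4 and Pdk4 are well-known targets of PPAR receptors. Angptl4 (ENSMUSG00000002289, chromosome 17, 33992724 to 34000804, minus strand) encodes a secreted inhibitor of lipoprotein lipase, the enzyme that frees fatty acids from circulating fat. It had a lowest, median and highest value of 2.59, 3.91 and 6.12 FPKM in IBC, 0.520, 6.45 and 8.42 FPKM in TNBS and 0.340, 0.629 and 6.70 FPKM in vector libraries. The vector value of 6.70 FPKM is vector 3, the library with the high mitochondrial share, and the other 5 vector libraries had 0.340 to 1.598 FPKM. Apart from TNBS 6, every TNBS and IBC library was above those 5. The log2 fold change of Angptl4 was 1.58 ± 0.73 for TNBS against vector (edgeR adjusted p = 0.270, unadjusted p = 0.0443, 5 of 6 TNBS libraries above the vector median). Without vector 3 it was 3.01 (edgeR adjusted p = 0.128). For IBC against vector it was 1.06 ± 0.72 (edgeR adjusted p = 0.761, 6 of 6 IBC libraries above the vector median) and 2.50 without vector 3 (0.176). For IBC against TNBS it was -0.52 ± 0.72 (edgeR adjusted p = 0.946), with 6 of 6 IBC libraries below the TNBS median. Adipocytes also make Angptl4, and adipocyte markers (3 of 7 higher in TNBS than vector, 5 of 7 higher in IBC than vector) summed to 32.4 to 495 FPKM in IBC, 2.45 to 607 FPKM in TNBS and 15.3 to 215 FPKM in vector libraries. Among vector libraries the highest sum (215 FPKM) was in vector 3, and the part of adipocytes in the Angptl4 values was not tested.

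Pdk4 (ENSMUSG00000019577, chromosome 6, 5483351 to 5496309, minus strand) encodes a kinase that inactivates pyruvate dehydrogenase and so spares glucose while fatty acids are burned. It averaged 3.84 ± 4.14 FPKM in IBC, 2.60 ± 3.05 in TNBS and 2.82 ± 3.02 in vector libraries (SD, n = 6 each). Its high and low libraries fell by Hoxb13 set within every group. The 6 libraries low in Hoxb13 had 4.26 to 10.5 FPKM and the 12 high in Hoxb13 had 0.390 to 1.75 FPKM, without overlap. Pdk4 was the only 1 of the 9 genes whose sets did not overlap, and 1.1% of all genes lay higher without overlap in the low set. Pooled, Pdk4 differed by -0.18 ± 0.90 (log2, SE) between TNBS and vector (edgeR adjusted p = 0.930), 0.58 ± 0.90 between IBC and TNBS (0.953) and 0.40 ± 0.90 in IBC over vector (0.948). The sign depended on single libraries: without vector 3 the TNBS against vector value was 0.68, and without IBC 5 the IBC values were -0.13 against TNBS and -0.31 against vector. With a Hox score as a covariate the values were -0.56 ± 0.29 in TNBS against vector (edgeR adjusted p = 0.264), 0.34 ± 0.28 in IBC against TNBS (0.735) and -0.21 ± 0.28 in IBC against vector (0.865).

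Fabp2 (ENSMUSG00000023057, chromosome 3, 122688721 to 122693155, plus strand) encodes the intestinal fatty acid-binding protein, a carrier in the cytosol of enterocytes. It was the most abundant of the 9 genes, with a mean of 159 FPKM over the 18 libraries, against 34.3 for Acadm, 29.8 for Hadha, 20.5 for Cpt1a, 3.68 for Angptl4, 3.08 for Pdk4, 2.87 for Ppargc1a, 1.18 for Ppara and 1.00 for Lpin1. It also varied most, and its highest library (IBC 5, 523 FPKM) was 76.7 times the lowest (IBC 6, 6.82 FPKM). The libraries low in Hoxb13 had 144 to 523 FPKM and those high in it 6.82 to 202 FPKM, with some overlap. Its mean was 191 ± 218 FPKM in IBC, 122 ± 86.0 in TNBS and 163 ± 138 in vector libraries (SD, n = 6 each). The differences were -0.45 ± 0.92 (log2, SE) between TNBS and vector (edgeR adjusted p = 0.809), 0.70 ± 0.93 between IBC and TNBS (0.944) and 0.24 ± 0.92 in IBC over vector (0.969). Within the 12 libraries high in Hoxb13 they were 0.24, -0.85 and -0.62, and within the other 6 they were -0.93, 1.45 and 0.51. Without IBC 5 the IBC values were -0.0045 against TNBS and -0.46 against vector.

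**Figure D4:**
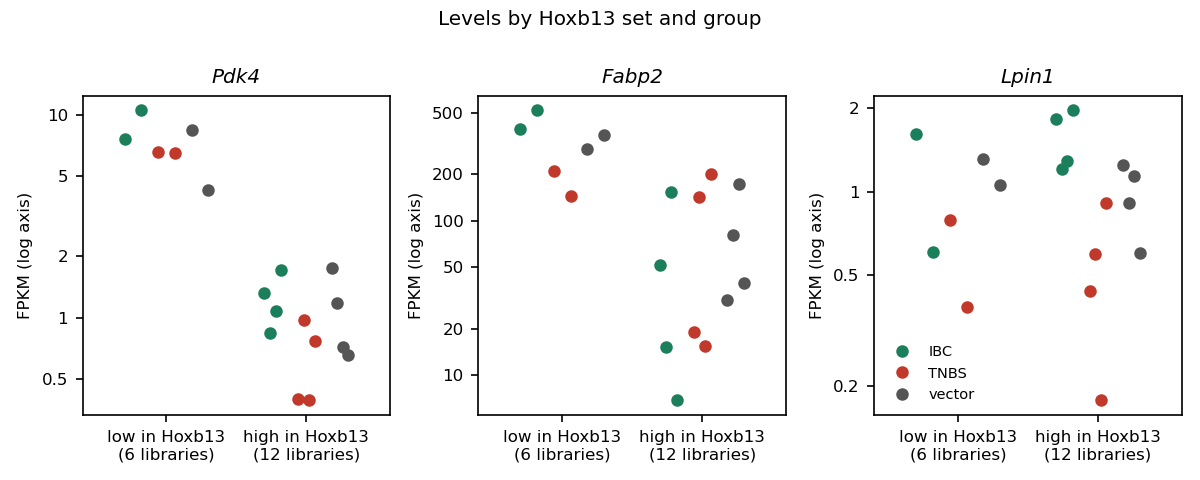
FPKM (log axes) of Pdk4, Fabp2 and Lpin1 by Hoxb13 set, with IBC, TNBS and vector libraries side by side in each set. Pdk4 lies at 4.26 FPKM or more in the low set and at 1.75 FPKM or less in the high set, Fabp2 overlaps between 144 and 202 FPKM, and Lpin1 spans 0.385 to 1.62 FPKM in the low set and 0.177 to 1.97 FPKM in the high set.

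The other genes of the pathway were read from 7 lists with 79 genes, of which 74 were tested. None passed in any comparison (background 0.0192% for TNBS against vector and 0% for both others). At an unadjusted p under 0.05, 4 were higher (10.4% of all genes) and 2 lower (7.32%) between TNBS and vector, 1 was higher (1.71%) and 0 lower (2.22%) between IBC and TNBS, and 3 were higher (4.9%) and 0 lower (3.63%) between IBC and vector. Of the 19 other genes of mitochondrial oxidation, 14 were higher and 5 lower between TNBS and vector (median 0.16). For single genes of the lists, a count such as 5 of 6 higher is of libraries above the median of the group compared. It is taken on FPKM, which lacks TMM. The ranges of the groups can still overlap. Acsl5, which activates fatty acids with coenzyme A, averaged 29.2 ± 6.22 FPKM in TNBS and 22.9 ± 5.65 in vector libraries (0.40 ± 0.17, edgeR adjusted p = 0.251, 5 of 6 higher). Acadl, the long-chain dehydrogenase, averaged 88.7 ± 18.9 FPKM in TNBS and 70.6 ± 8.16 in vector libraries (0.35 ± 0.18, adjusted p = 0.312, 5 of 6 higher). Acsl1, another activating enzyme, averaged 4.79 ± 1.58 FPKM in IBC and 3.18 ± 1.34 in TNBS libraries. Its difference was 0.50 ± 0.26 (edgeR adjusted p = 0.925), with 6 of 6 IBC libraries above the TNBS median and overlapping ranges. Slc25a20, the carrier that takes acyl-carnitine across the inner mitochondrial membrane, averaged 21.0 ± 11.7 FPKM in IBC and 12.8 ± 3.72 in vector libraries (0.68 ± 0.38, adjusted p = 0.679, 5 of 6 higher).

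Peroxisomes shorten very long chains by their own enzymes. Of 10 such genes 5 were higher between TNBS and vector (median -0.03), and 9 were higher between IBC and TNBS (median 0.16). Ehhadh, a bifunctional enzyme of the peroxisome, averaged 14.4 ± 3.58 FPKM in IBC, 10.3 ± 3.73 in TNBS and 13.0 ± 1.43 in vector libraries (SD, n = 6 each), and all 6 IBC libraries exceeded the TNBS median (0.41 ± 0.23, edgeR adjusted p = 0.925). Crot, a carnitine acyltransferase of peroxisomes, averaged 8.49 ± 0.641 FPKM in IBC and 6.94 ± 1.01 in TNBS libraries. Its difference was 0.19 ± 0.10 (edgeR adjusted p = 0.925), with 6 of 6 IBC libraries above the TNBS median and overlapping ranges. Abcd3, a transporter of the peroxisomal membrane, averaged 30.5 ± 13.1 FPKM in IBC and 21.9 ± 5.44 in vector libraries (0.44 ± 0.32, adjusted p = 0.773, 5 of 6 higher). Acaa1b, a peroxisomal thiolase, averaged 9.22 ± 11.0 FPKM in IBC and 4.42 ± 5.90 in vector libraries. Its difference was 1.00 ± 0.90 (edgeR adjusted p = 0.837). All 6 IBC libraries lay above the vector median, but the ranges overlapped (2.06 to 26.0 FPKM in IBC, 1.24 to 16.4 FPKM in vector).

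Ketone bodies are made from acetyl-CoA in mitochondria and burned in other tissues. Of 7 genes of their synthesis, transport and use, 3 were higher and 4 lower between TNBS and vector (median -0.09), 4 higher and 3 lower between IBC and TNBS (0.02) and 3 higher and 4 lower between IBC and vector (-0.10). Acat1, a thiolase of both synthesis and use, averaged 50.6 ± 5.57 FPKM in IBC, 53.9 ± 4.15 in TNBS and 52.2 ± 10.6 in vector libraries (SD, n = 6 each). Slc16a1, a transporter of lactate, butyrate and ketone bodies, averaged 56.4 ± 14.2 FPKM in IBC, 54.1 ± 14.6 in TNBS and 60.1 ± 16.2 in vector libraries. Bdh2, which is annotated as a hydroxybutyrate dehydrogenase, was low in all groups, with 0.168 ± 0.0554 FPKM in IBC and 0.209 ± 0.0965 in TNBS libraries. The smallest edgeR adjusted p in this list was 0.726 for TNBS against vector, 0.925 for IBC against TNBS and 0.891 in IBC over vector.

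Some genes of the lists differed in level by Hoxb13 set. Of the 74 genes tested, 8 lay higher in all 6 libraries low in Hoxb13 than in any of the other 12 (background 1.1%) and 2 lay lower (background 1.63%). The genes named here were singled out after their values were seen. Acadvl, the very-long-chain dehydrogenase, had a median of 88.5 FPKM in the low set and 59.0 FPKM in the high set. Acaa1b had a median of 15.9 FPKM in the low set and 1.89 FPKM in the high set. Pparg, another PPAR receptor, Slc27a4, a fatty acid transporter, and Lpin2, a paralog of Lpin1, were also among the 8. The 2 genes in the other direction were Oxct1, which is needed to burn ketone bodies, with medians of 38.9 FPKM in the low set and 65.9 FPKM in the high set, and Pdk1, a paralog of Pdk4, with medians of 2.67 and 6.29 FPKM. The sums of colon epithelium markers also differed between the sets without overlap, at 5736 to 13541 FPKM in the low set and 2884 to 5711 FPKM in the high set. In that sum Car1 had the widest range (207 to 9570 FPKM in IBC libraries), while Epcam ran from 592 to 735 FPKM there. The gap between the sums therefore need not hold for the other markers. The part of these markers in the differences between the sets was not tested.

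Among nuclear receptors and cofactors that act on the pathway, 10 of 12 were lower between TNBS and vector (median -0.26) and 9 of 12 lower between IBC and vector (median -0.13). Ppard, the relative of PPAR-alpha that is common in gut epithelium, averaged 16.3 ± 1.39 FPKM in IBC, 15.3 ± 6.84 in TNBS and 20.1 ± 2.50 in vector libraries (SD, n = 6 each). It differed by -0.40 ± 0.23 between TNBS and vector (edgeR adjusted p = 0.351), with 5 of 6 TNBS libraries below the vector median. Between IBC and vector it differed by -0.38 ± 0.23 (edgeR adjusted p = 0.707), with 6 of 6 IBC libraries below that median and overlapping ranges. Rxra, the partner receptor of PPARs, averaged 12.4 ± 1.65 FPKM in IBC and 9.89 ± 3.25 in TNBS libraries. Its difference was 0.26 ± 0.21 (edgeR adjusted p = 0.925), with 6 of 6 IBC libraries above the TNBS median and overlapping ranges. Sirt3, a mitochondrial deacetylase, averaged 2.59 ± 0.299 FPKM in IBC and 3.11 ± 0.369 in vector libraries. Its difference was -0.35 ± 0.19 (edgeR adjusted p = 0.653), with 6 of 6 IBC libraries below the vector median and overlapping ranges.

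Of 8 other PPAR targets tested, 6 were higher between TNBS and vector (median 0.27) and 7 were higher between IBC and vector (median 0.56), while Fgf21, Cyp4a10 and Cyp4a14 had too few counts. Creb3l3, a membrane-bound transcription factor of fasting metabolism in mouse liver, had a lowest, median and highest value of 0.794, 2.12 and 2.94 FPKM in IBC, 0.476, 1.70 and 4.42 FPKM in TNBS and 0.0919, 0.266 and 0.985 FPKM in vector libraries. The highest vector value was vector 3, and all IBC and TNBS libraries exceeded the vector median. Its log2 fold change was 2.48 ± 0.61 for TNBS against vector (edgeR adjusted p = 0.103) and 2.35 ± 0.61 for IBC against vector (0.246). Acot1, which splits acyl-CoA back into fatty acid and coenzyme A, averaged 2.24 ± 0.596 FPKM in IBC, 2.30 ± 0.748 in TNBS and 1.22 ± 0.220 in vector libraries (SD, n = 6 each). Its IBC and vector libraries did not overlap (background 1.12% of all genes higher without overlap), and it differed by 0.82 ± 0.27 between IBC and vector (edgeR adjusted p = 0.368) and by 0.94 ± 0.27 between TNBS and vector (0.144). Acot1 and its neighbour paralog Acot2 have similar sequences, so reads could be split between them. Between IBC and TNBS, Slc25a42 (0.24 ± 0.24, edgeR adjusted p = 0.925), a mitochondrial carrier of coenzyme A, and Acot2 (0.27 ± 0.32, adjusted p = 0.937) had 6 of 6 IBC libraries above the TNBS median.

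Of 11 tested genes of fatty acid uptake and binding, 10 were higher between TNBS and vector (median 0.15) and 10 between IBC and vector (median 0.44). Fabp6, the bile acid-binding protein of the same family as Fabp2, averaged 4.36 ± 3.72 FPKM in IBC, 4.52 ± 3.77 in TNBS and 1.76 ± 0.895 in vector libraries (SD, n = 6 each). It differed by 1.40 ± 0.66 between TNBS and vector (edgeR adjusted p = 0.279, 5 of 6 higher) and by 1.24 ± 0.66 between IBC and vector (0.657, 4 of 6 higher). Fabp5 averaged 3.00 ± 1.70 FPKM in TNBS and 2.30 ± 0.424 in vector libraries (0.46 ± 0.31, adjusted p = 0.424, 3 of 6 higher). Lipe, a lipase abundant in adipocytes, averaged 6.60 ± 3.52 FPKM in IBC and 3.88 ± 3.56 in TNBS libraries. Its difference between IBC and TNBS was 0.71 ± 0.53 (edgeR adjusted p = 0.925), with 6 of 6 IBC libraries above the TNBS median and overlapping ranges. The adipocyte markers given above were higher by sign in the same comparison, in 6 of 7 genes, and in 5 of 7 between IBC and vector (median 0.58), and their part in this list was not tested. Slc27a1 and Slc27a2 encode proteins that import and activate fatty acids. Slc27a1 differed by 0.39 ± 0.31 between IBC and TNBS (edgeR adjusted p = 0.925, 6 of 6 above the TNBS median), and Slc27a2 by 0.49 ± 0.29 between IBC and vector (0.707, 6 of 6 above the vector median).

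Of 7 tested paralogs of the 9 genes, 1 was higher and 6 lower between TNBS and vector (median -0.15), and 5 were higher and 2 lower between IBC and TNBS (median 0.13). Pdk2, the kinase related to Pdk4, averaged 13.1 ± 2.71 FPKM in IBC, 8.84 ± 3.77 in TNBS and 13.4 ± 2.61 in vector libraries (SD, n = 6 each), with 6 of 6 TNBS libraries below the vector median. It differed by -0.63 ± 0.24 between TNBS and vector (edgeR adjusted p = 0.214) and by 0.48 ± 0.24 between IBC and TNBS (0.925). Angptl2, a secreted relative of Angptl4, averaged 6.48 ± 2.94 FPKM in IBC, 3.67 ± 1.9002 in TNBS and 5.93 ± 1.02 in vector libraries. It differed by -0.73 ± 0.30 between TNBS and vector (edgeR adjusted p = 0.239, 5 of 6 lower) and by 0.71 ± 0.30 between IBC and TNBS (0.925, 5 of 6 higher). Pdk3 (0.23 ± 0.14, edgeR adjusted p = 0.718) and Angptl6 (-0.29 ± 0.31, adjusted p = 0.861) had the smallest p of this list between IBC and vector.

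**Figure D5:**
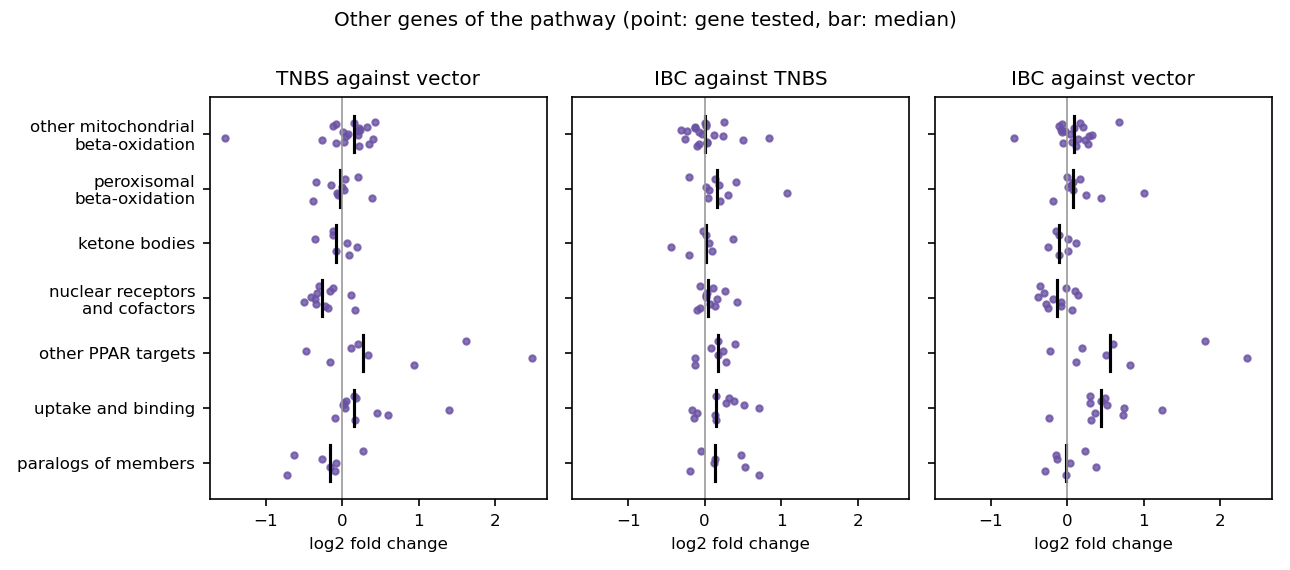
Log2 fold changes (horizontal axes) of the genes tested in the 7 lists of the pathway, 1 point per gene, with a bar at the median of each list. Most points lie near 0, the medians run from -0.26 to 0.56, and the point farthest to the right in TNBS against vector is Creb3l3 at 2.48.

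The genes whose levels over the 18 libraries were most like those of 4 members were taken by Pearson's r of log2 CPM among 12287 genes. Because the libraries form 2 sets by Hoxb13, r is given within the 12 libraries high in it, as a description. The genes most like Lpin1 were Tbcel (r = 0.904), Crebrf (0.901), Fbxl20 (0.917), Erbb3 (0.857) and Ehbp1 (0.938). Those most like Ppara were Nr3c1, the glucocorticoid receptor (r = 0.905), 9930021J03Rik (0.913), Bche (0.898), Tbc1d9 (0.885) and Hmcn2 (0.833). Those most like Fabp2 were Cdx2, a transcription factor of intestinal epithelium (r = 0.961), Ugt2b5 (0.932), Abca12 (0.929) and Hsd3b3 (0.924). Those most like Pdk4 were Slc10a2, the ileal bile acid transporter (r = 0.860), Ptprr (0.857), 4931406C07Rik (0.762), Ces1d (0.851) and Inpp5a (0.572). Over all 18 libraries r was 0.953 for Inpp5a.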

How the data were processed

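The deposited table gives, per the file headers, a count and an FPKM value for each gene and library, and all value columns were used. Per the submitters' processing notes reads were trimmed with cutadapt 1.9. Per the labels' protocols RNA was selected on oligo(dT). The aligner, counter, strand setting, annotation and build are not stated in the labels or headers. The deposited counts are whole numbers with different totals per library. Counts of 4 (19961) were more frequent than counts of 3 (9977) or 5 (6358), so a fragment may be worth more than 1 count. The FPKM values deposited by the authors were used for levels and carry no further scaling.

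Genes were filtered with filterByExpr, scaled by TMM and tested with edgeR 4.0.16 in a single two-sided model of the 3 groups, under R 4.3.3. Libraries held 55669263 to 78874868 counts. Alternatives used DESeq2 1.42.0 and limma 3.58.1. The procedure was tested on simulated counts. The 9 genes and all lists were chosen with earlier results of these data known. The rule for named genes takes the 9 members, every list gene called, the 2 genes with the smallest p per list and comparison, and the 5 genes most like each of Lpin1, Pdk4, Ppara and Fabp2. Some genes that this rule names are not reported here. No 2 libraries of a group were duplicates (at most 0.855% of genes with over 20 counts in a pair had equal counts). Same-numbered libraries correlated above 0.1 in 7 of 18 pairs pooled over the comparisons (median -0.0208, from -0.403 to 0.494). The highest value was for number 2 of IBC and TNBS, both low in Hoxb13. The lowest was for number 3 of IBC and vector, which are in different sets. These values do not settle pairing, and the libraries were treated as unpaired. Promoter windows are from RefSeq on GRCm38.p6, while positions of genes are those of the table.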

Additional observations from a re-analysis of the deposited data

Results flagged for a closer look

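Each of the 9 genes was checked in each of the 3 groups for a library far from the other 5, 27 checks in all, and chance flags about 1 in 20 of them. Hadha in TNBS 5 was 15.5 FPKM, with the nearest TNBS library at 30.3 and the highest at 33.4 FPKM. Angptl4 in vector 3 was 6.70 FPKM, with the nearest vector library at 1.598 and the lowest at 0.340 FPKM.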

How the results depend on the processing

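None of the 9 genes was called under any alternative that gave a test (598 values, smallest adjusted p 0.0705). The other 23 values are Lpin1 in IBC against TNBS, which has no test. Of all 621 values, 40 had the other sign. Over all genes, 4 were called in TNBS against vector. DESeq2 called 578, the Hox covariate 125 and the replicate block 1. The count was 0 with no filter, a mean CPM filter of 1, limma on FPKM with either pseudocount, only the 2 groups compared, the 12 libraries high in Hoxb13, the 6 low in it, and counts divided by 4. Leaving out 1 library gave 0 to 323, with 323 without TNBS 6. In IBC against TNBS, where 0 were called, DESeq2 called 2, and leaving out 1 library gave 0 to 1. In IBC against vector, where 0 were called, DESeq2 called 186, the 2 groups alone 8, the Hox covariate 42 and the 12 libraries 30, and leaving out 1 library gave 0 to 5. The cause was not tested.

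Signs turned as follows. With limma and a pseudocount of 0.1, Hadha was -0.0011 in TNBS against vector, Fabp2 -0.10 in IBC against TNBS and -0.57 in IBC against vector, and Acadm 0.0080 in IBC against vector. With a pseudocount of 1, Fabp2 was -0.078 and -0.54 in the same comparisons and Acadm 0.0078. With the Hox covariate, Hadha (-0.0074) and Fabp2 (-0.47) turned in IBC against TNBS, and Pdk4 (-0.21) and Fabp2 (-0.60) in IBC against vector. In the 12 libraries, Fabp2 was 0.24 in TNBS against vector, -0.85 in IBC against TNBS and -0.62 when IBC was set against vector, and Hadha -0.0063 in IBC against TNBS. In the 6 libraries, Cpt1a was -0.12 and Hadha -0.016 in TNBS against vector, and Acadm 0.21 and Lpin1 -0.13 in IBC against vector. Leaving out 1 library in TNBS against vector gave -0.0079 to 0.23 for Cpt1a, -0.013 to 0.15 for Hadha and -0.71 to 0.68 for Pdk4. In IBC against TNBS it gave -0.040 to 0.11 for Hadha, -0.13 to 1.11 for Pdk4, -0.039 to 0.57 for Ppara and -0.0045 to 0.95 for Fabp2. In IBC against vector it gave -0.0023 to 0.17 for Hadha, -0.31 to 1.26 for Pdk4 and -0.46 to 0.60 for Fabp2. FPKM with a pseudocount of 0.1 moved the median of all genes to 0.114 in IBC against TNBS, against 0.00226.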
